A study of Mus musculus with 12 samples.

Results

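Epithelial-to-mesenchymal transition (EMT) was followed here through 10 genes, chosen by name: the EMT factors *Snai1*, *Snai2*, *Zeb1*, *Zeb2*, *Twist1*, *Twist2* and *Prrx1*, and the epithelial counter-regulators *Esrp1*, *Esrp2* and *Grhl2*. All 10 were found among the 24340 gene entries of each of 2 RNA-seq tables. The first table compares 3 *Hnf4a* cKO livers with 3 control livers. The cKO mice carried *Hnf4a* fl/fl alleles and the tamoxifen-inducible *Alb-CreERT2* transgene, whose albumin promoter limits Cre to hepatocytes, and livers were taken on day 7 of tamoxifen. The controls, called WT in the labels, were *Hnf4a* fl/fl, Cre-negative and without tamoxifen by the methods, while a legend of the study gives them as the same genotype without tamoxifen. The effects of Cre, tamoxifen and *Hnf4a* loss therefore cannot be told apart. The second table compares 3 samples of NIH 3T3 mouse fibroblasts 72 h after transduction with a lentivirus for mouse *Hnf4a* (isoform 2) and eGFP (HNF4A EE) with 3 samples that received the empty vector.

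In EMT, epithelial cells loosen their junctions, lose polarity and turn on genes of motile, matrix-producing cells. The EMT factors are DNA-binding proteins that repress epithelial genes such as *Cdh1*, which encodes E-cadherin, and most of them bind the E-box, a short motif of the letters CANNTG. The counter-regulators hold the epithelial state: ESRP1 and ESRP2 direct the splicing of epithelial isoforms, and GRHL2 activates junction genes. In adult liver, hepatocytes and bile duct cells are epithelial, whereas stellate, endothelial and immune cells are not, and ZEB2 is part of the normal identity of Kupffer cells.

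Each table lists 1 FPKM per gene and group, fragments per kilobase of exon, scaled to library size. The 3 samples of a group are merged in that value, so these FPKM give neither an SD nor a test between samples, and the read depth is unknown. In what follows, lower and higher as calls mean a log2 ratio at or beyond 0.5 in size, in a gene that reached 1 FPKM in at least 1 group (the floor). Without replicates such a call describes the libraries and not the spread between animals or cultures. *Hnf4a* itself was listed at 144 FPKM in cKO livers and 275 FPKM in control livers, and at 1758 FPKM in HNF4A EE cells against 0.639 FPKM in vector cells. RNA of its exons outside the floxed part can still count in cKO livers. RNA came from whole pulverized livers, although the labels name hepatocytes. Of 10 hepatocyte markers, 9 passed the floor in the livers, 5 of them lower in cKO livers and 4 inside the threshold, while *Alb* was listed at 0 in both. Their summed level was 17707 FPKM in cKO and 26176 FPKM in control livers. With both groups rescaled to the same total, 5 were lower and 2 higher, and the log2 ratio of the sums was −0.17. The same 10 markers summed to 0.494 FPKM in HNF4A EE cells and 0.150 FPKM in vector cells.

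The upstream sequences of *Snai1*, *Twist1* and *Prrx1*, members that were lower in HNF4A EE cells, are shown because they differ in base composition and in the motifs they hold. RefSeq windows on GRCm38.p6 were found for 5 of the 10 genes (*Snai1*, *Twist1*, *Twist2*, *Prrx1* and *Zeb2*). The bases before the transcript start read, 5′ to 3′ on the strand of each gene, with an E-box (CACCTG or its reverse complement CAGGTG) and a TATA motif (TATAAA) in capitals. The *Prrx1* run holds 190 of the 250 window bases, those ahead of the GENCODE start:
*Snai1*, chr2:167537945-167538194, plus strand: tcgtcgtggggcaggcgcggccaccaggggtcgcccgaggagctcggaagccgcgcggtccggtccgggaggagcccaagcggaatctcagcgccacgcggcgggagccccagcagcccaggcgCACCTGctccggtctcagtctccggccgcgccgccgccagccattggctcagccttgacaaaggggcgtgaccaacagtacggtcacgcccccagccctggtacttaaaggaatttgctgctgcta
*Twist1*, chr12:33957421-33957670, plus strand: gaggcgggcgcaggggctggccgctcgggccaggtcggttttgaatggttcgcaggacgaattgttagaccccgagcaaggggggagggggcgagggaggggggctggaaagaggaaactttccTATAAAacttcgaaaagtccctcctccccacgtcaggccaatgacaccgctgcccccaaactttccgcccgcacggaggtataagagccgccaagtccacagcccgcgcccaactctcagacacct
*Prrx1*, chr1:163313711-163313900, minus strand: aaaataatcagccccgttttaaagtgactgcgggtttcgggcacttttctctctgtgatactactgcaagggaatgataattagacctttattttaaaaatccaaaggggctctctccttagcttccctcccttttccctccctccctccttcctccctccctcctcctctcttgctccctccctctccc
The *Snai1* window holds 1 E-box, which begins 126 bases upstream of the start, and no other CANNTG. E-boxes of this type, searched on both strands, occur in 17.2% of the 32851 RefSeq windows of 250 upstream bases, and any CANNTG occurs in 66.2%. The *Twist1* window has a TATAAA that begins 126 bases upstream, a motif (with its reverse complement TTTATA) of 12.4% of windows, and no CANNTG. The HNF4A-type motif CAAAGTCCA, or its reverse complement TGGACTTTG, is in 0.384% of windows and in none of the 8 windows of these 5 genes. In 250 upstream bases *Snai1* has 27 CG dinucleotides, *Twist2* 23, *Twist1* 18 and *Prrx1* 4, against a median of 6 over all windows. The *Zeb2* windows have 14, 6, 6 and 9. The *Prrx1* count covers all 250 window bases, including those past the GENCODE start that are not printed. These matches describe letters and say nothing of which factor binds.

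In 3T3 cells all 7 EMT factors were expressed and 4 were lower with HNF4A, *Prrx1*, *Twist1*, *Zeb1* and *Snai1*. Among all 10766 genes past the floor in this table, 25.1% were lower by the same rule and 25.2% were higher. The 7 EMT factors summed to 102 FPKM in HNF4A EE cells and 174 FPKM in vector cells. Their median log2 ratio was −0.63, against −0.01 over all genes past the floor. *Snai1*, *Twist1* and *Zeb1* are also among the genes that the study picked out from these same libraries, so their direction is not independent evidence. Of 10 fibroblast markers of 3T3 cells 7 passed the floor, 4 of them lower, 1 higher and 2 inside the threshold, with *Lum* at 0 in both groups. The higher 1 passed the floor in HNF4A EE cells only and 1 of the lower in vector cells only, which fixes their direction. The list summed to 404 FPKM in HNF4A EE cells and 3654 FPKM in vector cells, of which *Vim* made up 237 FPKM and 2863 FPKM. The part of this change in the values of the EMT factors was not tested.

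**Figure D1:**
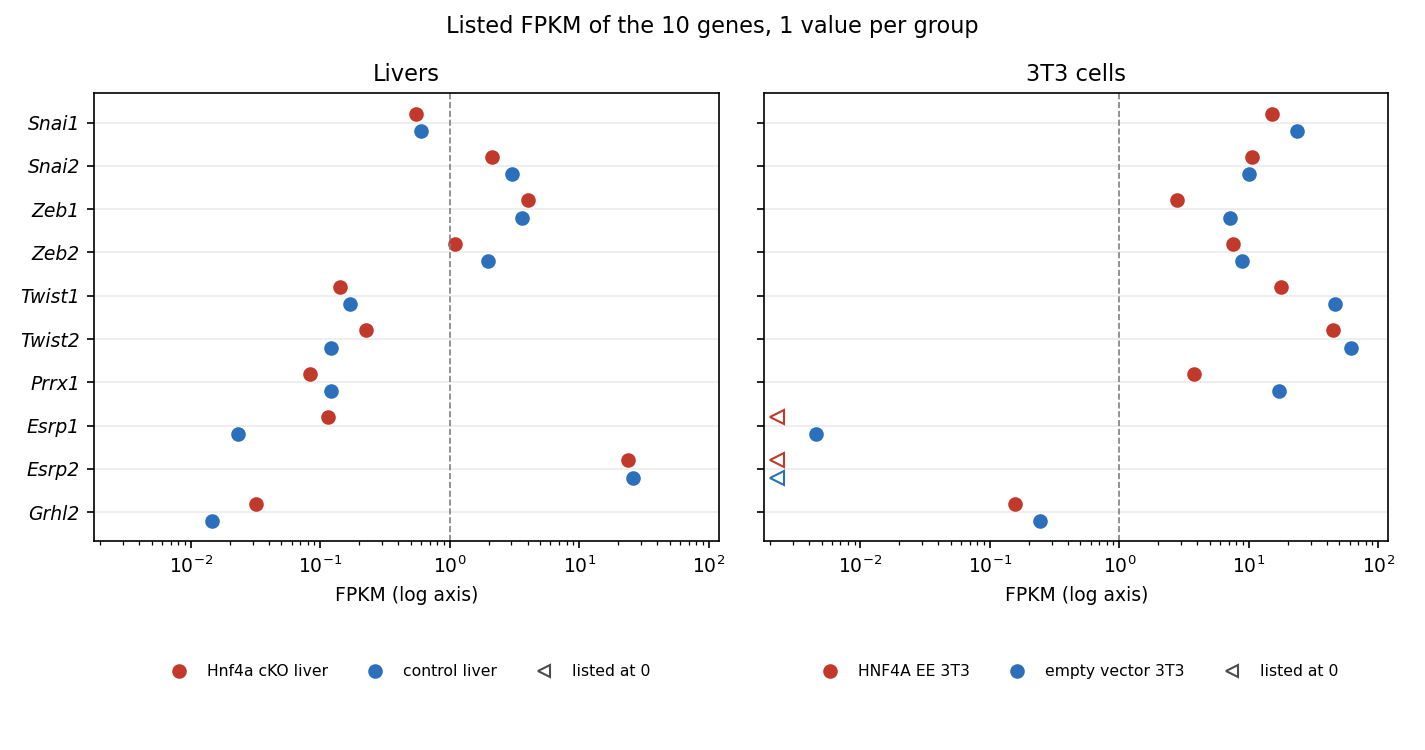
Listed FPKM of the 10 genes on a log axis, 1 point per group (red, *Hnf4a* cKO livers or HNF4A EE cells; blue, control livers or vector cells), with open triangles for values listed at 0 and a dashed line at 1 FPKM. The 7 EMT factors lie between 2.77 and 61.1 FPKM in the 3T3 table, and *Esrp2* is the only one of the 10 above 5 FPKM in livers.

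*Prrx1*, a homeobox factor of embryonic mesenchyme, had the largest difference of the 10 genes in 3T3 cells. It was listed at 3.75 FPKM in HNF4A EE cells and 17.1 FPKM in vector cells, 4.56-fold lower (log2 ratio −2.19), and 1.92% of expressed genes had a lower ratio. Its paralogue *Prrx2* was at 12.2 FPKM in HNF4A EE cells against 19.2 FPKM in vector cells (log2 ratio −0.66), so the order of the pair was *Prrx2* above *Prrx1* in both groups. The minus-strand gene *Prrx1* (GRCm38, chr1:163245119-163313710) shares no exonic base with another annotated gene.

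The bHLH factors TWIST1 and TWIST2, which act in mesoderm and pair with E proteins on E-boxes, were the most abundant EMT factors of the vector cells. *Twist1* had 17.6 FPKM in HNF4A EE cells and 46.3 FPKM in vector cells, 2.63-fold lower (log2 ratio −1.39). *Twist2* had 44.8 FPKM in HNF4A EE cells and 61.1 FPKM in vector cells, a log2 ratio of −0.45 that stayed inside the threshold. The ratio of *Twist2* to *Twist1*, which does not depend on how the libraries are scaled, was 2.54 in HNF4A EE cells and 1.32 in vector cells. *Twist1* (chr12:33957671-33959829) shares no exonic base with another gene. *Twist2* (chr1:91801461-91848028) shares 1477 exonic bases with *Gm29100* on the opposite strand, and without a stated strand setting their reads cannot be told apart.

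ZEB1 and ZEB2, zinc finger and homeodomain repressors held down in epithelia by miR-200, differed from each other. *Zeb1* was listed at 2.77 FPKM in HNF4A EE cells and 7.14 FPKM in vector cells, 2.58-fold lower (log2 ratio −1.37). *Zeb2* was at 7.53 FPKM in HNF4A EE cells and 8.92 FPKM in vector cells (log2 ratio −0.24), inside the threshold. The ratio of *Zeb2* to *Zeb1* was accordingly 2.72 in HNF4A EE cells and 1.25 in vector cells. The antisense gene *Zeb2os*, which shares 653 exonic bases with *Zeb2* (chr2:44983632-45117395), had 0.849 FPKM in HNF4A EE cells and 1.10 FPKM in vector cells. *Gm10125*, opposite *Zeb1* on chromosome 18 over 198 exonic bases, had 0.125 FPKM in HNF4A EE cells and 0.0779 FPKM in vector cells.

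SNAIL and SLUG, encoded by *Snai1* (chr2:167538195-167542814) and *Snai2* (chr16:14705852-14709385), are zinc finger repressors of *Cdh1*. *Snai1* had 15.1 FPKM in HNF4A EE cells and 23.4 FPKM in vector cells, 1.55-fold lower (log2 ratio −0.63). *Snai2* had 10.6 FPKM in HNF4A EE cells and 10.1 FPKM in vector cells (log2 ratio 0.07), the only one of the 7 EMT factors with a higher listed value. The ratio of *Snai2* to *Snai1* was 0.701 in HNF4A EE cells and 0.432 in vector cells. With both groups of a table rescaled to the same total, *Snai1* had a log2 ratio of −0.49, just inside the threshold. *Prrx1*, *Twist1* and *Zeb1* stayed lower at −2.05, −1.25 and −1.22. Centred on the median, *Snai1* stayed lower at −0.62, so its call rests on which scaling is used.

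The make-up of the summed FPKM of the 7 factors differed as well. *Twist2* held 43.8% of the sum in HNF4A EE cells and 35.1% in vector cells, and *Snai2* held 10.4% and 5.81%. *Twist1* held 17.3% of the sum in HNF4A EE cells and 26.6% in vector cells, and *Prrx1* held 3.67% and 9.82%. Within the pairs *Snai1* and *Snai2*, *Zeb1* and *Zeb2*, and *Twist1* and *Twist2*, the first of each pair was the one with the lower ratio in these cells.

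**Figure D2:**
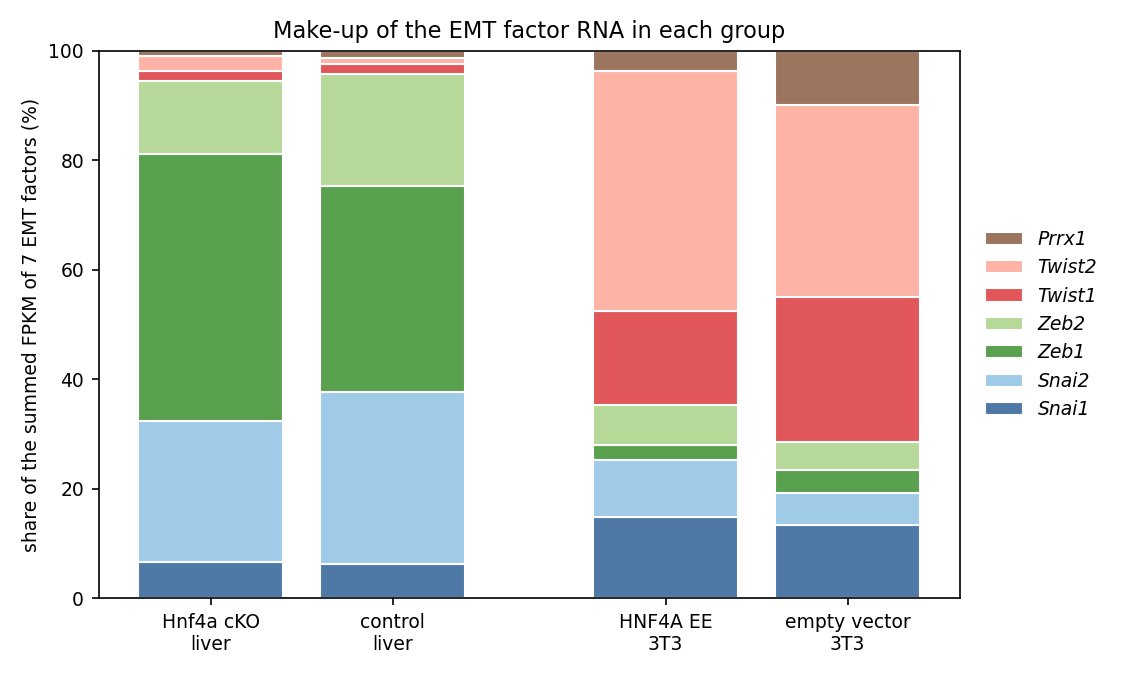
Share of each EMT factor in the summed FPKM of the 7 factors (%), 1 stacked bar per group. *Zeb1*, *Snai2* and *Zeb2* fill most of both liver bars, whereas *Twist2* and *Twist1* lead in 3T3 cells, where *Twist2* takes 43.8% with HNF4A and 35.1% with the empty vector.

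No counter-regulator reached an FPKM of 1 in 3T3 cells. *Grhl2* (chr15:37233036-37363569), which shares 169 exonic bases with *Gm16136* on the opposite strand, was listed at 0.156 FPKM in HNF4A EE cells and 0.242 FPKM in vector cells. *Esrp1*, which like *Esrp2* controls the exon choice of *Fgfr2*, was listed at 0 in HNF4A EE cells and 0.00451 FPKM in vector cells. *Esrp2* was listed at 0 in both. An induction of *Esrp1*, *Esrp2* or *Grhl2* by 72 h was therefore not detectable in these values. Of their relatives, *Grhl1*, a grainyhead factor of epidermis, was higher at 2.71 FPKM in HNF4A EE cells against 0.697 FPKM in vector cells (log2 ratio 1.96), and *Grhl3* was listed at 0 in both.

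In livers, 4 of the 10 genes passed the floor, *Esrp2*, *Zeb1*, *Snai2* and *Zeb2*. Of these *Zeb2* and *Snai2* were lower in cKO livers and none was higher, where 22.4% of the 11275 genes past the floor were lower and 19.3% higher. The 7 EMT factors together summed to 8.21 FPKM in cKO livers and 9.64 FPKM in control livers. *Snai2* had 2.11 FPKM in cKO livers and 3.03 FPKM in control livers, a log2 ratio of −0.52 that is just past the threshold. *Zeb2* had 1.09 FPKM in cKO livers and 1.97 FPKM in control livers, 1.81-fold lower (log2 ratio −0.86). *Zeb1*, the most abundant EMT factor of both groups, had 4.01 FPKM in cKO livers and 3.63 FPKM in control livers (log2 ratio 0.14), and the ratio of *Zeb2* to *Zeb1* was 0.272 in cKO livers and 0.544 in control livers.

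The liver calls depend on which scaling is used. All listed FPKM sum to 458704 in cKO livers and 601955 in control livers. *Alb*, listed at 0 in both groups, adds nothing to these totals. Rescaling all FPKM to the same total moves every log2 ratio of the livers up by 0.39 (0.14 in 3T3 cells). *Snai2* then had −0.13 and *Zeb2* −0.46, both inside the threshold, and *Zeb1* had 0.54 and was past it upwards. Of the genes past the floor 42.1% were then higher and 12.7% lower, with a median log2 ratio of 0.38. Centring the ratios on their median instead kept both liver calls, with *Snai2* at −0.52 and *Zeb2* at −0.85. In 3T3 cells the rescaled background was 31.3% higher and 19.9% lower.

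**Figure D3:**
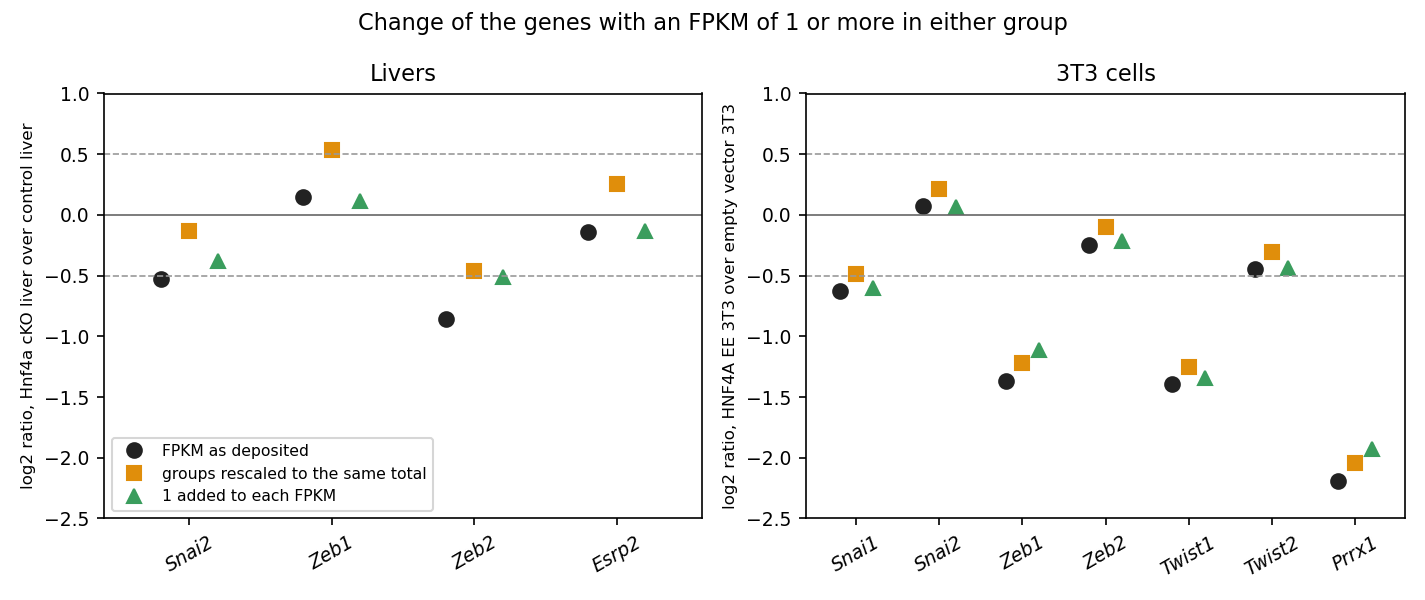
Log2 ratio of *Hnf4a* cKO over control livers (left) and of HNF4A EE over vector cells (right) for the members past the floor, as deposited (circles), with groups rescaled to the same total (squares) and with 1 added to each FPKM (triangles); dashed lines mark 0.5 in either direction. The 3 largest reductions in 3T3 cells, *Prrx1*, *Twist1* and *Zeb1*, are past the threshold under all 3 settings, while *Snai2* and *Zeb2* in livers are not.

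Markers of other liver cells were counted beside these values. Fewer cells of a type and less RNA per cell cannot be told apart in such samples. Of 13 stellate and fibroblast markers, 11 passed the floor and 6 were lower, 1 of these past the floor in control livers only. The list summed to 129 FPKM in cKO and 167 FPKM in control livers. Of 12 endothelial markers, 6 were lower and 1 higher, with sums of 117 FPKM in cKO and 163 FPKM in control livers. Of 12 macrophage markers 11 were inside the threshold and 1 was higher, with sums of 367 FPKM in cKO and 352 FPKM in control livers. The higher 1, *Marco*, named after its values were seen, had 43.4 FPKM in cKO and 3.91 FPKM in control livers. Of 8 lymphocyte markers 1 passed the floor and was lower, but it passed in control livers only, which fixes its direction. The list summed to 2.25 FPKM in cKO and 4.96 FPKM in control livers. The 3 neutrophil markers past the floor, of 5 found, were higher, 1 of them past it in cKO livers only. Of 5 mesothelial markers 3 passed the floor, in cKO livers only, and 2 of them were higher, with sums of 4.61 FPKM in cKO and 2.32 FPKM in control livers. None of the markers found of these 6 lists was listed at 0 in both groups. After rescaling to the same total, the log2 ratio of the summed level was 0.02 for stellate and fibroblast markers, of which 3 were then lower and 1 higher. It was −0.08 for endothelial markers, of which none was then lower and 1 was higher. For macrophage markers it was 0.45, and 2 of them were then higher and none lower. The part of these cells in the values of *Snai2*, *Zeb1* and *Zeb2* was not tested.

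The remaining EMT factors were under the floor in both liver groups. *Snai1* had 0.548 FPKM in cKO livers and 0.595 FPKM in control livers. *Twist1* had 0.143 FPKM in cKO livers and 0.170 FPKM in control livers. *Twist2* had 0.226 FPKM in cKO livers and 0.121 FPKM in control livers, and *Prrx1* had 0.0832 FPKM in cKO livers and 0.121 FPKM in control livers. At such levels the ratios carry little weight, and a turning on of *Twist1*, *Twist2* or *Prrx1* in cKO livers by day 7 was not detectable. The *Snai* paralogue *Snai3* had 0.0423 FPKM in cKO livers and 0.344 FPKM in control livers, *Scrt1* and *Scrt2* were listed at 0 in both, and *Prrx2* was at 0.0338 FPKM in cKO livers and listed at 0 in control livers.

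*Esrp2*, which in mouse hepatocytes sets the adult splicing program, was the counter-regulator of the liver. It had 23.7 FPKM in cKO livers and 26.1 FPKM in control livers, a log2 ratio of −0.14 that was inside the threshold and became 0.25 after rescaling. Its level was above that of 89.5% of entries in cKO livers and 89.3% in control livers. *Esrp2* (chr8:106130319-106136974) shares 119 exonic bases with *1810019D21Rik* and 219 with *Nfatc3*, both on the opposite strand. *1810019D21Rik* had 19.2 FPKM in cKO livers and 16.4 FPKM in control livers, so part of the reads at this locus is uncertain. *Esrp1* (chr4:11331933-11386783), which shares 127 exonic bases with *Gm26663* on the opposite strand, was far below it, with 0.114 FPKM in cKO livers and 0.0233 FPKM in control livers. *Grhl2* was at 0.0317 FPKM in cKO livers and 0.0146 FPKM in control livers. Both values are higher in cKO livers but under the floor, and there 7 of 10 cholangiocyte markers (9 past the floor) were also higher and none lower (5 of the 7 passed the floor in cKO livers only, which fixes their direction), with a summed level of 53.0 FPKM in cKO and 36.1 FPKM in control livers. The part of bile duct cells in the values of *Esrp1* and *Grhl2* was not tested.
*Grhl1*, in contrast to *Grhl2*, passed the floor, with 4.31 FPKM in cKO livers and 0.460 FPKM in control livers (log2 ratio 3.23), and *Grhl3* was at 0.0393 FPKM in cKO livers and 0.0667 FPKM in control livers. *Grhl1* was thus higher in both tables, in livers with *Hnf4a* deleted and in 3T3 cells with HNF4A added, and in each it passed the floor only in that group, which fixes the direction.

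The genes that EMT factors repress were counted next. Of 28 epithelial target genes, 5 passed the floor in 3T3 cells and all 5 were higher, but *Krt8* passed it only in HNF4A EE cells. *Pkp3*, a plakophilin of desmosomes, had 24.8 FPKM in HNF4A EE cells and 3.40 FPKM in vector cells (log2 ratio 2.86). *Pkp2*, another plakophilin, had 18.1 FPKM in HNF4A EE cells and 8.06 FPKM in vector cells. The polarity gene *Llgl2* had 14.5 FPKM in HNF4A EE cells and 7.84 FPKM in vector cells, and *Krt8*, a keratin of simple epithelia, had 1.18 FPKM and 0.384 FPKM. The fifth, *Tjp1*, which links junctions to actin, had 62.0 FPKM in HNF4A EE cells and 38.2 FPKM in vector cells and was named after its values were seen. *Cdh1*, the classical target, had 0.0735 FPKM in HNF4A EE cells and 0.428 FPKM in vector cells, both under the floor, and *Epcam*, an epithelial adhesion gene, was listed at 0 in both.

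Of 23 mesenchymal genes, 17 passed the floor in 3T3 cells. Of these 11 were lower, 3 were higher, and the median was −2.41 on the log2 scale. *S100a4*, a calcium-binding protein of motile cells, had 59.5 FPKM in HNF4A EE cells and 4519 FPKM in vector cells, and the intermediate filament gene *Vim* had 237 FPKM in HNF4A EE cells and 2863 FPKM in vector cells. The collagens *Col1a2*, *Col3a1* and *Col1a1* had log2 ratios of −6.07, −6.04 and −4.96. The higher genes included, named after their values were seen, the collagen crosslinker *Lox* (126 FPKM in HNF4A EE cells and 55.7 FPKM in vector cells) and *Thy1*, at 1.08 FPKM in HNF4A EE cells and listed at 0 in vector cells. *Thy1* passed the floor in HNF4A EE cells only and *Col3a1* in vector cells only, which fixes their direction. The log2 ratio of *Prrx1*, −2.19, was smaller in size than those of *S100a4*, *Vim* and the 3 collagens.

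In livers 18 of the 28 epithelial target genes passed the floor, 5 were higher and 4 lower, with a median of 0.04. Of the 5, *Prss8*, *Krt19* and *Epcam* passed the floor in cKO livers only, which fixes their direction. After rescaling 9 were higher and 3 lower. *Cdh1* was higher at 22.9 FPKM in cKO livers and 7.99 FPKM in control livers (log2 ratio 1.52), and *Epcam* was higher at 1.43 FPKM in cKO livers and 0.706 FPKM in control livers. *Prss8*, a membrane protease of epithelia, had 16.2 FPKM in cKO livers and 0.742 FPKM in control livers, and *Krt19* had 2.35 FPKM and 0.940 FPKM. The claudin *Cldn3* was lower, at 31.0 FPKM in cKO livers and 73.6 FPKM in control livers. *Krt19* and *Epcam* are also cholangiocyte markers. Of 23 mesenchymal genes, 16 passed the floor, 6 were lower and 3 higher, with a median of −0.27 that became 0.13 after rescaling, with 5 higher and 4 lower. Of the 6, 2 passed the floor in control livers only, *Acta2* among them, which fixes their direction. *Postn*, a matrix protein, had 2.19 FPKM in cKO livers and 5.74 FPKM in control livers, the smooth muscle genes *Acta2* and *Tagln* had log2 ratios of −1.05 and −1.05, and *S100a4* was higher at 2.90 FPKM in cKO livers and 1.25 FPKM in control livers. *Vim* had 11.1 FPKM in cKO livers and 12.5 FPKM in control livers, inside the threshold.

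**Figure D4:**
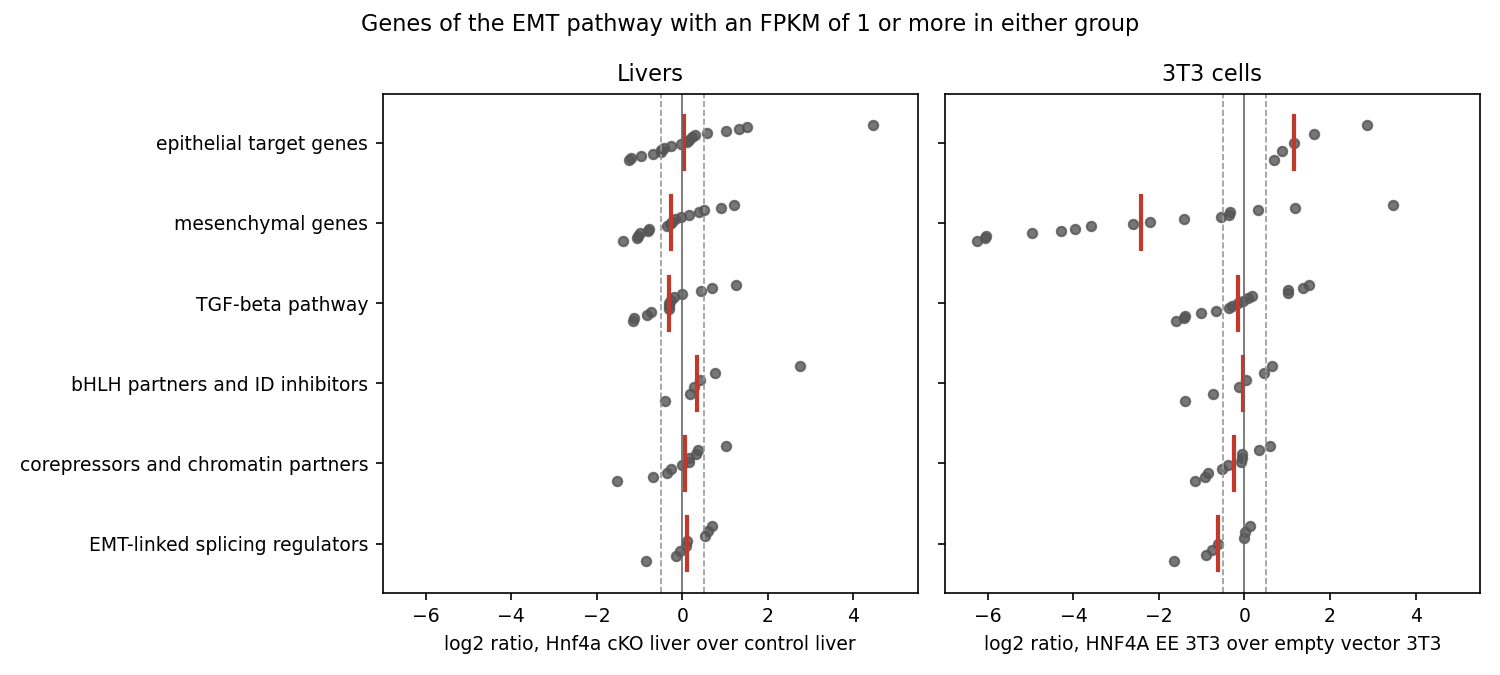
Log2 ratios of single genes (grey points) of 6 lists, for genes past the floor, livers on the left and 3T3 cells on the right, with the list's median as a red bar and dashed lines at 0.5 in either direction. The mesenchymal genes reach below −6 in 3T3 cells, where their median is −2.41, and lie between −1.39 and 1.22 in livers, where it is −0.27.

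Of 7 bHLH partners and ID inhibitors 6 passed the floor in each table, with 2 lower and 1 higher in HNF4A EE cells and 2 higher in cKO livers. Among the E proteins that TWIST1 and TWIST2 pair with, *Tcf3* had 20.7 FPKM in HNF4A EE cells and 54.4 FPKM in vector cells (log2 ratio −1.39) and *Tcf4* had 2.65 FPKM and 4.40 FPKM (log2 ratio −0.73), while *Tcf12* had 35.4 FPKM in HNF4A EE cells and 34.8 FPKM in vector cells. *Id2*, whose product binds E proteins and keeps them from DNA, was higher at 15.7 FPKM in HNF4A EE cells and 10.0 FPKM in vector cells. In livers *Tcf3*, *Tcf4* and *Tcf12* had log2 ratios of −0.39, 0.28 and 0.18, all inside the threshold, but after rescaling *Tcf4* and *Tcf12* were past it at 0.68 and 0.57 and 5 genes of the list were higher. *Id1* was higher there, at 109 FPKM in cKO livers and 16.2 FPKM in control livers (log2 ratio 2.75), and so was *Id3*, at 140.4 FPKM in cKO livers and 83.2 FPKM in control livers.

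Among 10 corepressors and chromatin partners of SNAIL and ZEB, 4 were lower and 1 higher in HNF4A EE cells. The scaffold *Sin3a* had 12.3 FPKM in HNF4A EE cells and 27.4 FPKM in vector cells, the deacetylase *Hdac2* had 46.5 FPKM and 88.2 FPKM, and the histone methyltransferase *Ezh2* had 41.6 FPKM and 74.6 FPKM. *Rcor1* was higher at 25.4 FPKM in HNF4A EE cells and 16.8 FPKM in vector cells. In livers 2 were lower, *Ajuba* (1.07 FPKM in cKO and 3.07 FPKM in control livers) and *Ctbp2* (0.784 FPKM and 1.26 FPKM, past the floor in controls only), and *Ezh2* was higher at 4.20 FPKM in cKO and 2.07 FPKM in control livers. After rescaling 5 were higher in livers and 1 lower, with *Ctbp2* inside the threshold at −0.29.

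The TGF-beta pathway, a main inducer of EMT factors, had 5 lower and 4 higher of 15 genes past the floor in HNF4A EE cells, of 17 listed. The ligands *Tgfb1* (2.35 FPKM in HNF4A EE and 6.30 FPKM in vector cells) and *Tgfb3* (2.49 FPKM and 6.57 FPKM) and the co-receptor *Tgfbr3* (10.2 FPKM and 30.6 FPKM) were lower. *Pmepa1*, a feedback inhibitor, was higher at 10.1 FPKM in HNF4A EE cells and 3.57 FPKM in vector cells. In livers 4 were lower and 2 higher of 13 past the floor. Their median was −0.30 and became 0.09 after rescaling, which left 2 lower, with *Eng* inside the threshold, and 3 higher. They included *Inhba*, which encodes an activin subunit (log2 ratio −1.16), the endothelial co-receptor *Eng* (−0.84), the signal transducer *Smad3*, at 1.76 FPKM in cKO livers and 3.84 FPKM in control livers, and *Skil*, which encodes an inhibitor of SMAD proteins and had 6.14 FPKM in cKO livers and 2.58 FPKM in control livers.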

How the data were processed

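RNA was extracted from pulverized livers and from NIH 3T3 cells. The authors used STAR (2.5.0b in the submitters' processing notes) for alignment on mm10, and the FPKM come from Cufflinks (2.2.1). Annotation, strand setting and between-library scaling: not given in the sources used here. Both deposited tables hold 1 FPKM per gene and group over 3 samples. The authors' fold changes, test statistics, p-values and q-values in them were not used, and only the column that says whether their program tested a gene served as an alternative filter. FPKM above 0 reach below 1e-06 (24 to 38 values per group), so whole reads could not be recovered. An exact 0 can be a failed estimate.

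The log2 ratio was computed with Python 3.11.15 and pandas 2.3.3 without a pseudocount, only within a table, since the 2 tables were normalized separately. A call needed a log2 ratio at or beyond 0.5, the fold limit in the study's methods, without their p-value condition, and an FPKM of 1 in either group. A gene listed at 0 in 1 group and past the floor in the other was counted in its direction, with no ratio. Alternatives were pseudocounts of 0.1 and 1, no floor or a floor of 5, genes tested by the authors' program only, rescaling to the same total, centring on the median and a log2 threshold of 1. The steps were tested on simulated tables. The members and lists were chosen with earlier results of these data known. Genes named are the 10 members, *Hnf4a*, up to 4 called genes with the largest log2 ratios per pathway list, *Cdh1*, *Vim*, *Epcam*, the E proteins, the family paralogues and the genes that overlap a member, with exceptions marked in the text. Some genes meeting the rule are not reported here. Upstream sequences are from RefSeq (GRCm38.p6). Loci are from GENCODE M21 (GRCm38).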

Additional observations from a re-analysis of the deposited data

How the results depend on the processing

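No paired analysis was possible because each table holds 1 value per group, and for the same reason no replicate could be left out. Of the 10 genes, 0 were higher and 2 lower in cKO livers, and 0 higher and 4 lower in HNF4A EE cells. Without an FPKM floor 3 were higher in cKO livers (*Twist2*, *Esrp1* and *Grhl2*, all under the floor), and *Prrx1* was added to the lower ones. After rescaling to the same total 1 was higher (*Zeb1*) and 0 lower, while centring on the median left 0 higher and 2 lower. With 1 added to each FPKM 1 was lower in livers, *Zeb2*, and with a floor of 5 FPKM or a log2 threshold of 1 it was 0. The 3T3 counts stayed within 1.5 times under the alternatives run, with *Snai1* lost after rescaling and at a log2 threshold of 1, and *Grhl2* counted as lower without a floor. Over all genes past the floor, rescaling gave 4743 higher and 1432 lower in livers, against 2179 and 2524 as deposited, and 3366 and 2141 in 3T3 cells, against 2713 and 2703. List medians changed sign in 11 cases, of which 7 had medians between −0.30 and 0.05 as deposited. The other 4 rest on 1 or 2 genes as deposited. In livers family paralogues had 3.23 from *Grhl1* alone and −0.76 without a floor, and other epithelial transcription factors had 0.95 from 2 genes, −0.012 without a floor and −0.96 with a floor of 5 FPKM. In 3T3 cells family paralogues had 0.65 from 2 genes and −0.66 with a floor of 5 FPKM. The unknown depth limits what can be said of genes under 1 FPKM.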

Other observations

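Other factors tied to EMT were counted as well. Of 12 further EMT transcription factors 8 passed the floor, 2 were lower and 1 higher in HNF4A EE cells. *Runx2*, a factor of bone-forming cells, had 1.48 FPKM in HNF4A EE cells and 10.9 FPKM in vector cells (log2 ratio −2.88). *Hmga2*, a chromatin protein of growing mesenchyme, had 56.1 FPKM in HNF4A EE cells and 176 FPKM in vector cells (log2 ratio −1.65). In livers *Foxq1* was higher at 18.1 FPKM in cKO and 8.02 FPKM in control livers, *Zfp281* was higher (log2 ratio 0.94), and *Tbx3* was lower at 4.12 FPKM in cKO and 8.83 FPKM in control livers. Of 12 further epithelial transcription factors, 3 passed the floor in 3T3 cells and none was called, with *Klf4* at 80.5 FPKM in HNF4A EE cells and 79.4 FPKM in vector cells (*Klf4* was named after its values were seen). In livers *Elf3*, past the floor in cKO livers only, was higher at 1.98 FPKM in cKO and 0.274 FPKM in control livers.

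Splicing regulators linked to EMT, other than the ESRP genes, were counted too. In HNF4A EE cells 4 of 7 past the floor were lower and none higher. *Mbnl1* had 22.3 FPKM in HNF4A EE cells and 69.8 FPKM in vector cells (log2 ratio −1.65), and *Srsf1*, *Hnrnpm* and *Ptbp1* had −0.91, −0.75 and −0.63, with *Ptbp1* inside the threshold after rescaling. In livers *Rbm47*, an epithelial RNA-binding protein, was lower at 9.25 FPKM in cKO and 16.7 FPKM in control livers but inside the threshold after rescaling (−0.46), and *Rbfox2*, *Mbnl2* and *Srsf1* were higher (log2 ratios 0.69, 0.60 and 0.52). Among 11 genes of SNAIL protein turnover, 3 were lower in HNF4A EE cells, *Cops2*, *Fbxl14* and *Fbxl5* (log2 ratios −0.79, −0.65 and −0.54), with *Fbxl5* inside the threshold after rescaling, and in livers 1, *Lats2*, was lower (−0.60) and none higher. After rescaling 3 were higher in livers and none lower. The tables hold RNA levels of genes, so neither isoforms nor SNAIL protein were measured.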
